A study of Mus musculus with 12 samples.

Results

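The Reg (regenerating) genes encode small secreted proteins built around a C-type lectin domain. The members were the rows of the deposited gene counts whose Ensembl identifier maps to Reg1, Reg2, Reg3a, Reg3b, Reg3d, Reg3g or Reg4, and all 7 were found among the 54838 genes of the file. Their messenger RNA was followed in the ileum of 12 female C57BL/6J mice of 8 to 14 weeks, kept SPF. The mice drank plain water or water with 25 mM ZnSO4 for 7 days and then received an injection of PBS or of 200 µg of dexamethasone (Dex), a synthetic glucocorticoid, and ileum was taken 2 h later. The groups water + PBS, water + Dex, ZnSO4 + PBS and ZnSO4 + Dex held 3 mice each, with no mutant or transgene in any of them, and water + PBS was the reference. The libraries held between 10760132 and 11827487 counts (median 11388606), and a gene was tested where it passed a filter on low counts, which left 15938 genes. Mt1, a metallothionein gene that zinc induces, had between 11971 and 27940 normalised counts in the 6 ZnSO4 libraries and between 490.3 and 1376 in the 6 plain-water libraries, and Fkbp5, a glucocorticoid-induced gene, had between 10262.5 and 12396 in the Dex libraries and between 950.0 and 1222 in the PBS libraries, so both marked their groups in every mouse. One library, ZnSO4 + Dex replicate 2, stood apart in its enterocyte marker reads and held the lowest Reg3b and Reg3g counts. Normalised counts here are reads scaled by TMM factors to the mean effective library size.

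As background, Reg3g and Reg3b are secreted onto the epithelial surface by enterocytes and Paneth cells. Reg3g binds peptidoglycan and kills Gram-positive bacteria, and Reg3b acts mainly on Gram-negative ones. Their transcription is known to depend on microbial signals through the adaptor MyD88 and on the cytokine IL-22 through its receptor and STAT3. Reg4 is made by enteroendocrine and other secretory cells, and Reg1, Reg2 and Reg3d are best known from the pancreas. In samples of whole tissue, fewer cells of a type and less RNA per cell cannot be told apart.

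In the GENCODE annotation of GRCm38, 6 of the 7 genes lay side by side on chromosome 6, within 98.22 kb between 78370657 and 78468872 and with no other annotated gene in that stretch. From the proximal end the order was Reg3b (chr6:78370657-78373466, plus strand), Reg3d (chr6:78375874-78378865, minus), Reg3a (chr6:78380709-78383827, plus), Reg2 (chr6:78395623-78408106, plus), Reg1 (chr6:78422711-78428667, plus) and Reg3g (chr6:78466269-78468872, minus). Reg4 stood alone on chromosome 3 (chr3:98222156-98236748, plus). No exon of a member overlapped an exon of another gene. Reg3b and Reg3g shared few sequence stretches: 0.446% of the 31-base words of Reg3b transcripts and 0.231% of those of Reg3g also occurred in the other gene, and no 50-base word did. Reg2, with 16.5% of its 31-base words found in other genes, is the member whose reads are least certain.

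RefSeq promoter windows (GRCm38.p6, 250 bases before to 50 bases after the transcription start) were found for all 7 genes. They are shown for the 4 genes for which a difference between groups passed the test, Reg3b, Reg3g and Reg4 with zinc and Reg3d with Dex. Capitals mark letters that match one of 5 short motifs searched on both strands. The motifs were the STAT palindrome TTCNNNGAA, the interferon response element (GAAA, any 2 bases, GAAA), the glucocorticoid receptor palindrome core ACANNNTGT and the metal response element core as TGCGCNC or as TGCACNC.
Reg3b, chr6:78370635-78370934, plus strand: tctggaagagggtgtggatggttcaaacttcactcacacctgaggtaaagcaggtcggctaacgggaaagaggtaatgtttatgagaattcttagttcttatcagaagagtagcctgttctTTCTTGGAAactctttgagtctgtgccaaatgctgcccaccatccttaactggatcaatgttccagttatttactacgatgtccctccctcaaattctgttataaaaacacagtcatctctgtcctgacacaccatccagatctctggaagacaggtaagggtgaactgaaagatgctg
Reg3g, chr6:78468825-78469124, minus strand: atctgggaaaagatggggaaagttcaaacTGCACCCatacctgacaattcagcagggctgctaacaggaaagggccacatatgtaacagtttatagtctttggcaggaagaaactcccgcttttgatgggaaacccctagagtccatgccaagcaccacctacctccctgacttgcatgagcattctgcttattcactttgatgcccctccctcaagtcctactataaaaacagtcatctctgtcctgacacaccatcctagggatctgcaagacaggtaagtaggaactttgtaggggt
Reg3d, chr6:78378816-78379115, minus strand: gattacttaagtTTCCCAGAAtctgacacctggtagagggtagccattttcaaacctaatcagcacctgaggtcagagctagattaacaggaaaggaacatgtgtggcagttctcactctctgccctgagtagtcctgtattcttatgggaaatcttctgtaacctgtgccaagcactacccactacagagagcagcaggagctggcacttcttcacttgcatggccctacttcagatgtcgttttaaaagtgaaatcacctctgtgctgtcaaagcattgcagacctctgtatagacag
Reg4, chr3:98221906-98222205, plus strand: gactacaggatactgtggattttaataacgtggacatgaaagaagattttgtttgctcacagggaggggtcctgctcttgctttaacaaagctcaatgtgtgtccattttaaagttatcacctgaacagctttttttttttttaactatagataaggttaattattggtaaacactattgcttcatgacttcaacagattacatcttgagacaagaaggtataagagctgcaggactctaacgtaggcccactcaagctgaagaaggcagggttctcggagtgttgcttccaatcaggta

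The Reg3b window held 1 STAT palindrome, TTCTTGGAA, 129 bases before the start, and the Reg3d window held another, TTCCCAGAA, 238 bases before it. The Reg3g window held 1 metal response core, TGCACCC, 221 bases before the start. The windows of Reg1, Reg2, Reg3a and Reg4 held no match, and no 2 matches overlapped. Among 32851 RefSeq promoter windows of the same length, 8.30% held the STAT palindrome, 3.44% the interferon response element, 6.85% the glucocorticoid receptor core, 15.4% TGCGCNC and 12.6% TGCACNC, so such matches are common and are given as descriptions only. When aligned, the Reg3b and Reg3g windows shared 207 identical bases, 69.0% of the window, the highest of the 21 pairs of members, against 61.0% for Reg3a and Reg3g and between 47.0% and 52.0% for Reg4 with any other member.

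In mice on plain water the ileum devoted a large part of its messenger RNA to this family. Reg3b took more reads than any other gene in all 6 plain-water libraries, and Reg3g ranked between 2nd and 8th. Together the 7 genes held between 1.95% and 3.81% of all counts on plain water and between 0.463% and 0.947% on ZnSO4, with no overlap between the 6 libraries of either kind. On ZnSO4 Reg3b ranked between 4th and 17th and Reg3g between 49th and 127th. The library ZnSO4 + Dex replicate 2 set 3 of these limits, and without it the lowest family share on ZnSO4 was 0.524% and the ranks reached 15th and 117th. Reg3b and Reg3g made up between 99.3% and 99.6% of the family's reads on plain water and between 91.8% and 97.4% on ZnSO4, while the part of Reg4 went from between 0.187% and 0.435% to between 1.96% and 6.93%, or at most 5.26% without ZnSO4 + Dex replicate 2, whose absence also raised the lowest joint part of Reg3b and Reg3g to 93.7%.

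**Figure D1:**
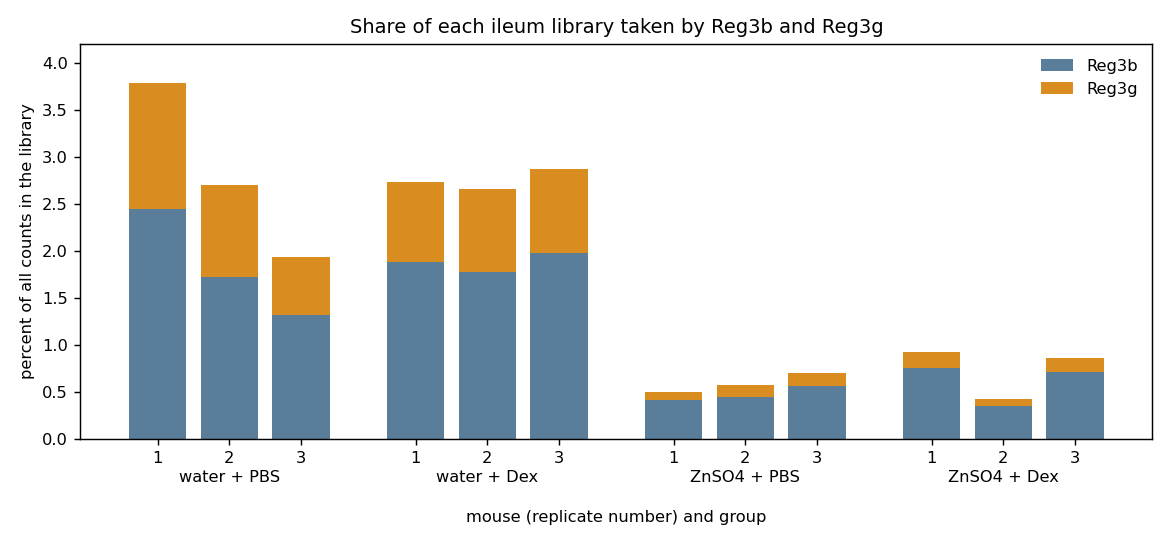
Percent of all counts in each library (vertical axis) that fell on Reg3b (lower bar part) and Reg3g (upper part), for the 3 mice of each group. In the 6 plain-water libraries Reg3b alone held between 1.32% and 2.44%, and in the 6 ZnSO4 libraries between 0.349% and 0.754%.

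Levels of different genes were compared per length, as reads per kilobase of summed exons scaled to library size (RPKM). In water + PBS mice Reg3b was first with 15946 ± 5188 (SD, n = 3) and Reg3g second with 4618 ± 1775. Reg3g has a long non-coding transcript that stretches its summed exons, and over the longest coding transcript of each gene the levels were 23257 ± 7567 and 12661 ± 4866. Reg3a at 90.7 ± 41.2 and Reg4 at 73.6 ± 21.7 were next and did not differ beyond their spread, with ranges of 52.5 to 134 and 49.0 to 90.1. Reg1 at 4.33 ± 0.51, Reg3d at 1.46 ± 0.20 and Reg2 at 0.0891 ± 0.0898 closed the order. In the other groups Reg4 stood above Reg3a. In water + Dex mice their ranges still overlapped, at 68.8 to 95.9 for Reg4 and 63.5 to 75.4 for Reg3a. In ZnSO4 + PBS mice Reg4 stood at 258 ± 97.8, with a range of 183 to 368, above Reg3a at 86.2 ± 1.99, with a range of 84.1 to 88.0.

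The bactericidal lectin Reg3g showed the largest difference of the family with zinc. Its normalised counts in water + PBS mice were 154290, 109954 and 68946. In ZnSO4 + PBS mice they were 9081, 13115 and 15714. The highest ZnSO4 mouse was thus far below the lowest plain-water mouse, and Reg3g fell by 3.14 on the log2 scale (SE 0.39, 95% confidence interval -3.98 to -2.29), to 0.114 times its level on plain water, with an adjusted p of 0.00141 in edgeR's quasi-likelihood test. It ranked 48th of 15938 genes by p and 28th by the size of a fall. In water + Dex mice the counts were 102269, 108657 and 110467, and in ZnSO4 + Dex mice 19444, 7939 and 18033. With Dex the groups did not overlap either, and Reg3g fell by 2.82 (SE 0.38, interval -3.66 to -1.99, adjusted p = 0.00230).

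Reg3b, the more abundant partner of Reg3g on the epithelial surface, followed the same course with a smaller fall. Water + PBS mice had 280357, 193602 and 147603 normalised counts, and ZnSO4 + PBS mice had 46322, 47091 and 60554. The groups did not overlap, and Reg3b fell by 2.01 (SE 0.35, interval -2.78 to -1.25, adjusted p = 0.009455, edgeR), to 0.248 times its level on plain water. With Dex the counts were 225535, 216759 and 243854 on plain water and 87386, 36402 and 83709.9 on ZnSO4. Reg3b fell by 1.73 there (SE 0.35, interval -2.48 to -0.97, adjusted p = 0.0171). This call was lost when a single water + Dex library was left out (adjusted p between 0.0547 and 0.0669) and when only those 2 groups entered the fit (adjusted p = 0.0505), while the log2 fold change over every library left out in turn ran from -1.93 to -1.42.

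Reg4, the lectin of enteroendocrine and other secretory cells, went the other way. Its normalised counts were 1047, 569 and 948 in water + PBS mice and 2127, 2569.8 and 4279 in ZnSO4 + PBS mice. Every ZnSO4 mouse was above every plain-water mouse, and Reg4 rose by 1.81 on the log2 scale (SE 0.29, interval 1.17 to 2.45, adjusted p = 0.00624, edgeR), to 3.50 times its level on plain water. With Dex it had 1114, 799 and 854 on plain water and 2147, 3349 and 3084 on ZnSO4, and it rose by 1.63 (SE 0.29, interval 0.997 to 2.27, adjusted p = 0.00951). In PBS mice Reg4 ranked 44th among all genes by the size of a rise.

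The other members of the chromosome 6 cluster did not pass the test with zinc. Reg3a, the third lectin of the Reg3 group in level, had 1262, 799.7 and 493 normalised counts in water + PBS mice and 789, 826 and 810.5 in ZnSO4 + PBS mice, which lay within the range of the former. Its log2 fold change was -0.07 (SE 0.26, interval -0.65 to 0.50, adjusted p = 0.903), and averaged over both injections it was 0.00 with an interval of -0.40 to 0.40. Reg1, an islet and acinar growth factor gene, was low throughout, with between 39 and 66 reads in every library and a log2 fold change of 0.15 (interval -0.33 to 0.64, adjusted p = 0.744). Reg3d had 12, 15 and 13 reads in water + PBS mice and 8, 4 and 7 in ZnSO4 + PBS mice, which did not overlap, but its log2 fold change of -1.13 (SE 0.43) had an adjusted p of 0.166. Reg2 had between 0 and 4 reads per library and was not tested.

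Of the 6 members tested, 1 was called higher and 2 lower with zinc in PBS mice, at an adjusted p under 0.05 and a log2 fold change beyond 0.8. The same rule called 1.7% of all genes tested, 0.747% higher and 0.954% lower. Groups did not overlap for 4 of the 6 members, which held for 25.3% of all genes. In Dex mice 3 of 6 members were again called, Reg3b, Reg3g and Reg4, against 1.9% of all genes, and for these 3 the groups did not overlap, against 25.9% of all genes. Averaged over both injections, Reg3g fell by 2.98 (SE 0.27, adjusted p = 7.1e-05), Reg3b fell by 1.87 (SE 0.25, adjusted p = 0.000643) and Reg4 rose by 1.72 (SE 0.21, adjusted p = 0.000348), against 2.71% of all genes called. For these 3 genes the 6 ZnSO4 and the 6 plain-water mice did not overlap, which held for 4.98% of all genes. The median log2 fold change of the members tested was -0.38, against -0.0046 over all genes. Reg3d, at -0.76 (SE 0.27), had an adjusted p of 0.0910 in the averaged comparison.

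**Figure D2:**
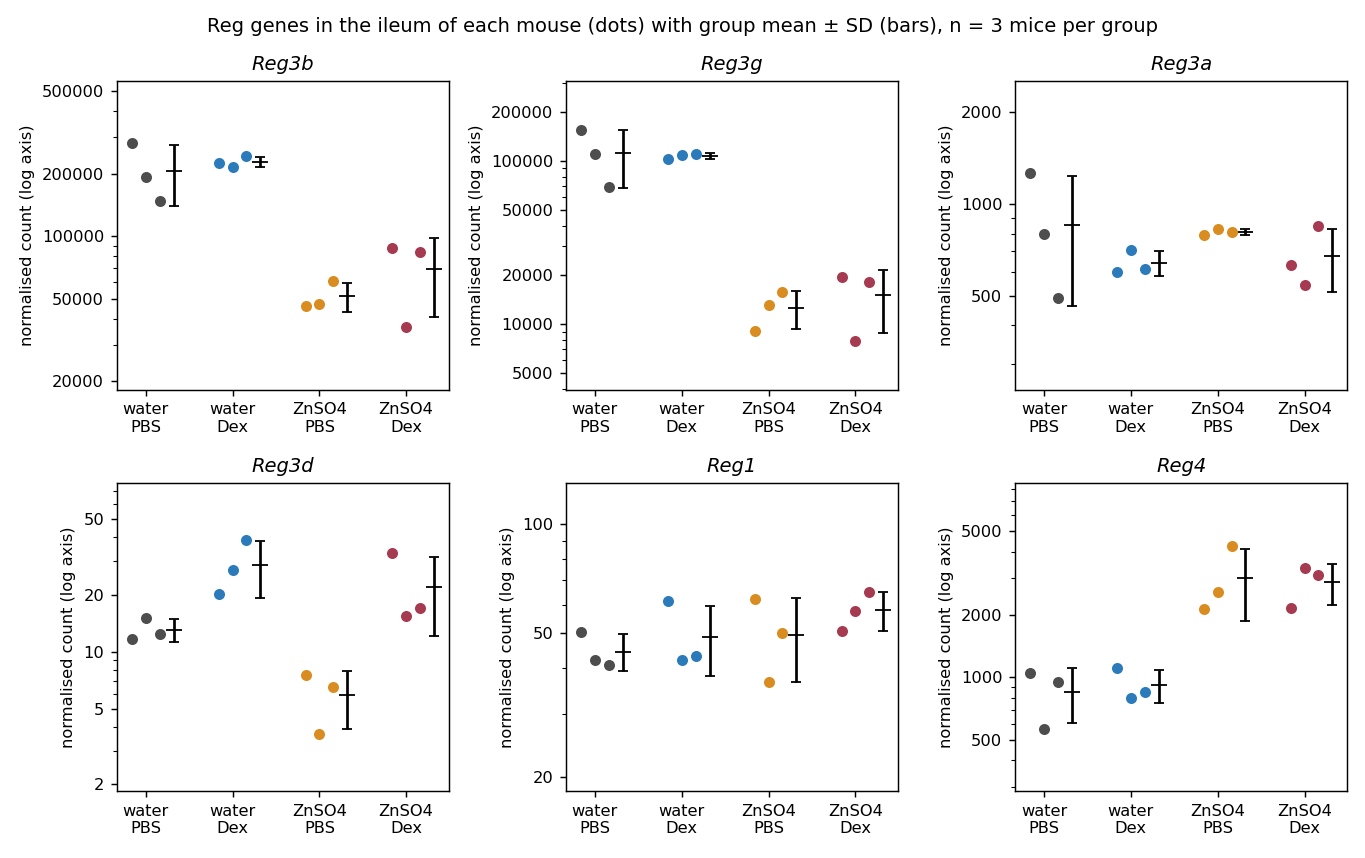
Normalised counts (log axis) of the 6 tested Reg genes in each mouse (dots), with group mean ± SD (bars), n = 3 per group. For Reg3b and Reg3g every ZnSO4 mouse sits below every plain-water mouse, for Reg4 every ZnSO4 mouse sits above, for Reg3a the 4 groups overlap, and Reg3d is higher with Dex than with PBS in either water.

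For the abundant members no difference with Dex passed the test. With Dex in plain-water mice none of the 6 members was called, against 4.42% of all genes. A single member, Reg3d, had an unadjusted p under 0.05 in edgeR, where 22.7% of all genes did, and DESeq2 also called 0. Reg3d was also the 1 of 6 members without overlap, against 29.7% of all genes. The log2 fold change was 0.14 for Reg3b (interval -0.60 to 0.88, adjusted p = 0.848), -0.05 for Reg3g (interval -0.83 to 0.73, adjusted p = 0.953) and 0.11 for Reg4 (interval -0.52 to 0.74, adjusted p = 0.867). The interval for Reg3b thus reached 0.88 upward and that for Reg3g -0.83 downward on the log2 scale. The Dex mice on plain water were close to each other in Reg3g, with an SD of 4307 normalised counts against 42683 in water + PBS mice. On ZnSO4 the order was the reverse, with an SD of 6275 in Dex mice and 3342 in PBS mice. The spread was not tested.

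Reg3d, a member of the Reg3 group known mainly from the pancreas, was the exception, at a low level. It had 12, 15 and 13 reads in water + PBS mice and 18, 25 and 36 in water + Dex mice, and 8, 4 and 7 in ZnSO4 + PBS mice against 32, 16 and 16 in ZnSO4 + Dex mice. In both drinking waters every Dex mouse was above every PBS mouse. In ZnSO4 mice Reg3d rose by 1.87 (SE 0.41, interval 0.98 to 2.76, adjusted p = 0.00967, edgeR), where it was the 1 member of 6 called, against 5.81% of all genes, and the 1 without overlap, against 29.1%. In plain-water mice its log2 fold change was 1.13 (SE 0.36, interval 0.34 to 1.93, adjusted p = 0.0764), and without ZnSO4 + Dex replicate 1 the adjusted p was 0.0480. Averaged over both waters it rose by 1.5 (SE 0.27, adjusted p = 0.00196), against 6.31% of all genes called, and it was the 1 member of 6 called and the 1 for which the 6 Dex and the 6 PBS mice did not overlap, against 9.74% of all genes. Reg3d counts of this size carry a large counting error, and a filter of at least 10 reads in every library removed the gene.

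**Figure D3:**
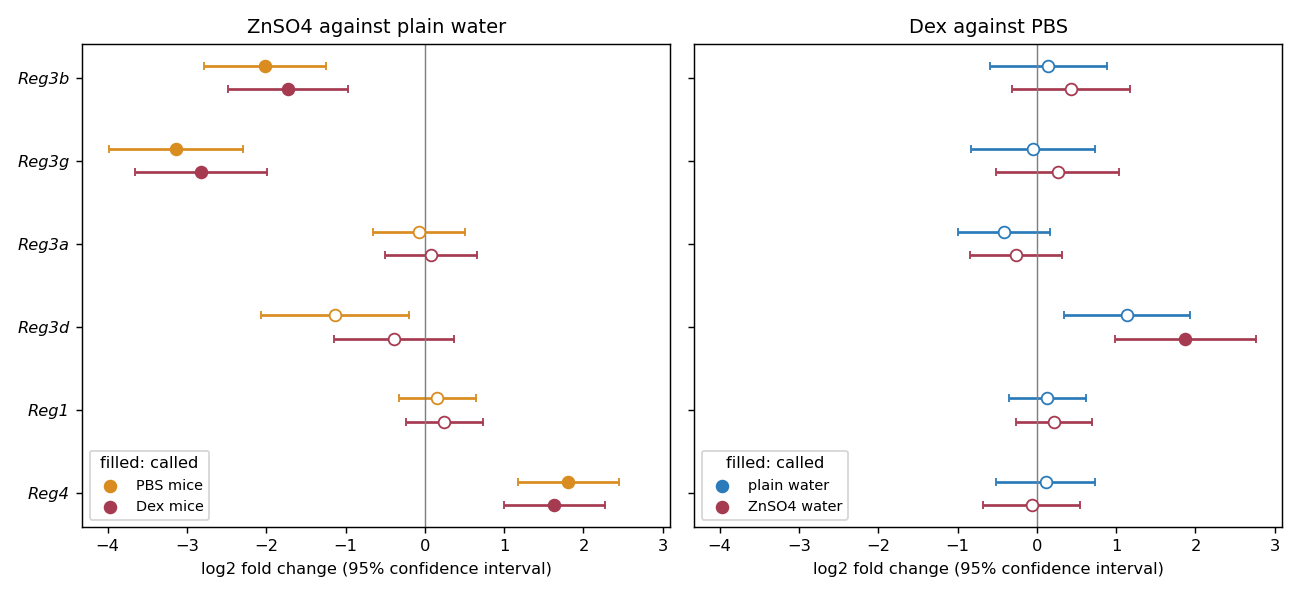
Log2 fold change with 95% confidence interval (horizontal axis) of each tested Reg gene for ZnSO4 against plain water (left) and Dex against PBS (right), with filled symbols for calls. Reg3b and Reg3g lie left of 0 and Reg4 right of 0 with zinc under either injection, and with Dex the filled symbol is Reg3d in ZnSO4 mice at 1.87.

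No difference in the effect of zinc between PBS and Dex mice was detected for any member. The difference between the log2 fold changes of zinc (Dex mice minus PBS mice) was 0.29 for Reg3b (interval -0.76 to 1.33), 0.31 for Reg3g (interval -0.79 to 1.42) and -0.17 for Reg4 (interval -1.05 to 0.70). Their adjusted p lay at 0.978 or above in edgeR, 0 of the 6 members had an unadjusted p under 0.05, and DESeq2 called 0. Over all genes 0 were called and 794, or 4.98%, had an unadjusted p under 0.05. ZnSO4 + Dex mice compared with water + PBS mice showed Reg3g at -2.88 (SE 0.38, adjusted p = 0.000288), Reg3b at -1.58 (SE 0.35, adjusted p = 0.00674) and Reg4 at 1.74 (SE 0.29, adjusted p = 0.00130), so that 3 of 6 members were called, against 9.66% of all genes. Groups did not overlap for 5 of the 6, with Reg3a as the exception, against 36.9% of all genes. When only these 2 groups entered the fit, Reg3b had an adjusted p of 0.0506. The comparisons in PBS mice, in plain-water mice and of both treatments share the water + PBS libraries, so their values stand side by side and are not independent.

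Reg3b and Reg3g both fell with zinc, and the number of Reg3b reads per Reg3g read was higher on ZnSO4. Within a library, Reg3b had between 1.76 and 2.21 reads per Reg3g read on plain water and between 3.59 and 5.10 on ZnSO4. The 6 libraries of either kind did not overlap, and the mean log2 ratio was higher by 1.11 with zinc. Reg3a had between 2.51 and 4.50 reads per 1000 Reg3b reads on plain water and between 7.24 and 17.5 on ZnSO4 (mean log2 difference 1.94). A total of 7 such ratios was computed, chosen after the values were seen, and they are given as descriptions. A permutation test was run on them but is not used, because of that choice. A ratio within a library shows unequal change and not which of its parts changed.

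**Figure D4:**
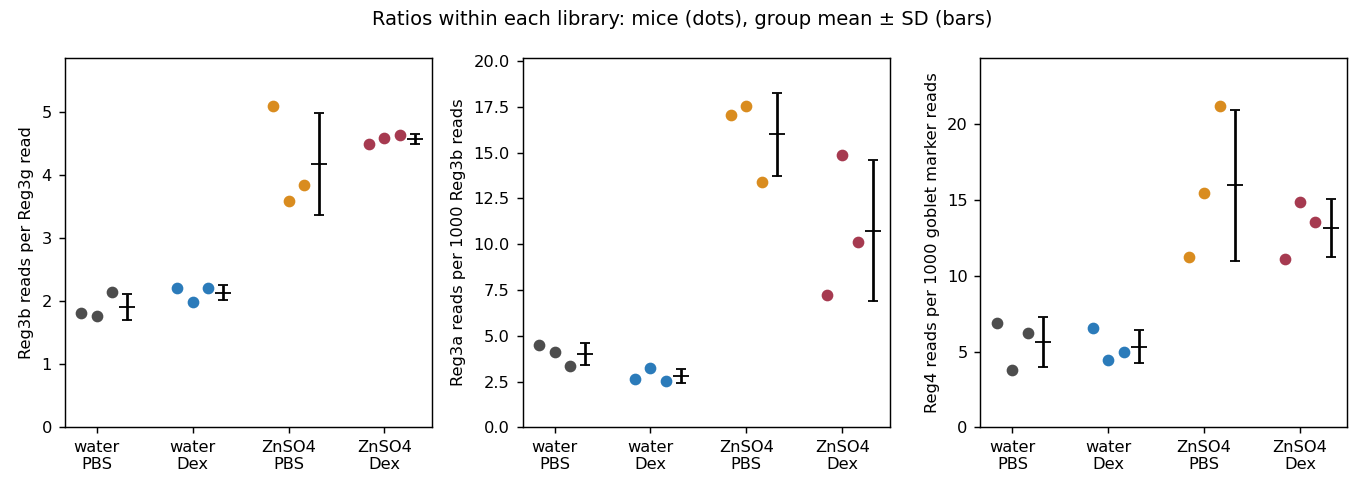
Reads of 1 Reg gene relative to another or to the summed goblet cell markers, within each library (dots), with group mean ± SD (bars), linear axes from 0. All 6 ZnSO4 libraries lie above all 6 plain-water libraries in each panel, for example 3.59 to 5.10 against 1.76 to 2.21 Reg3b reads per Reg3g read.

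The markers of the cells that make these lectins were counted beside them. Summed over 10 Paneth cell markers, the normalised counts ran from 221995 to 325366 in water + PBS mice and from 205786 to 280729 in ZnSO4 + PBS mice. None of the 10 was called with zinc in PBS mice (1 had an unadjusted p under 0.05 in edgeR, and DESeq2 called 0), and 9 of the 10 log2 fold changes were below 0 with a median of -0.19, against a median of 0.074 in Dex mice and -0.064 averaged over injections. Summed over 7 enterocyte markers, the counts ran from 186536 to 216256 in water + PBS mice and from 204022 to 245852 in ZnSO4 + PBS mice, with 0 of 7 called (2 with an unadjusted p under 0.05, and 0 by DESeq2) and a median of -0.029. In Dex mice 6 of the 7 were below 0 with a median of -0.30. Averaged over injections edgeR called 0 of 7 (1 with an unadjusted p under 0.05) and DESeq2 called 1 lower. Reads of Reg3b per enterocyte marker read lay between 0.683 and 1.5 on plain water and between 0.188 and 0.399 on ZnSO4, and those of Reg3g between 0.319 and 0.827 and between 0.0369 and 0.0888. Per Paneth marker read Reg3g did not overlap either, at 0.212 to 0.537 and 0.0199 to 0.102, whereas Reg3b did, at 0.454 to 1.05 and 0.0912 to 0.471. Without ZnSO4 + Dex replicate 2 the lower limits on ZnSO4 were 0.0323 for Reg3g and 0.165 for Reg3b. The library ZnSO4 + Dex replicate 2 stood apart, with the lowest enterocyte sum of all 12 libraries, 106654, the lowest Reg3b and Reg3g counts, and a Paneth sum of 399082, close to the 398372 of water + Dex replicate 3. Without it the log2 fold change with zinc in Dex mice was -1.42 for Reg3b, -2.52 for Reg3g and 1.503 for Reg4, and that of Reg3d with Dex in ZnSO4 mice was 2.07, and all 4 were still called by edgeR, as were Reg3b, Reg3g and Reg4 with zinc averaged over injections and with both treatments together.

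Reg4 was set beside markers of secretory cells. All 8 goblet cell markers had a log2 fold change above 0 with zinc, with a median of 0.24 in PBS mice and 0.25 averaged over injections, and 1, the mucin gene Muc2, was called in both, against 1.7% and 2.71% of all genes. Muc2 rose by 0.88 in PBS mice (SE 0.20, adjusted p = 0.0329, edgeR). The summed goblet markers ran from 149743 to 152070 in water + PBS mice and from 166124 to 201728 in ZnSO4 + PBS mice. With zinc they rose as Reg4 did, by less. In water + Dex mice the goblet sum ran from 169556 to 179118, also above that of water + PBS mice. Reg4 had a log2 fold change of 0.11 with Dex in plain-water mice (adjusted p = 0.867, edgeR). Reg4 had between 3.8 and 6.88 reads per 1000 goblet marker reads on plain water and between 11.1 and 21.2 on ZnSO4 (mean log2 difference 1.41). Of 10 enteroendocrine markers, Tac1, which encodes substance P, was called, and it fell by 1.06 in PBS mice (SE 0.18, adjusted p = 0.00767). Most of the list went the other way: the median of the 10 was 0.21 there, and 2 of the 10 log2 fold changes were below 0. Averaged over injections 1 of the 10 was below 0, with a median of 0.27. The summed enteroendocrine markers ran from 3912 to 4220 in water + PBS mice and from 4719 to 5387 in ZnSO4 + PBS mice. The part of these cells in the Reg4 result was not tested.

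T cells, a source of IL-22, were also followed by their markers. Their summed normalised counts lay between 709 and 1188 in the 6 plain-water mice and between 346 and 653 in the 6 ZnSO4 mice. With zinc averaged over injections 4 of 5 markers were called, against 2.71% of all genes, all lower (Cd3d, Cd3e, Cd3g and Cd8a, named after their values were seen), and DESeq2 also called 4. The median of the 5 was -0.98. The part of these cells in the Reg3b and Reg3g results was not tested.

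Because Reg1, Reg2 and Reg3d are pancreatic genes, acinar cell markers were checked. Of 10, the defining Cpa1, Cela3b and Amy2a5 had 0 reads in all 12 libraries, Pnlip, Prss2, Cela2a and Ctrb1 had at most 1 read in a library, and the summed normalised counts of the list lay between 12.0 and 21.6 in every library, with like ranges in the 4 groups. A count of 0 in a library still allows up to 3 reads, for counting error alone.

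The pathway known to drive Reg3b and Reg3g was read from lists of its parts. Il22, the ligand, had 10, 2 and 0 reads in water + PBS mice, 1, 0 and 1 in water + Dex mice, 0, 0 and 1 in ZnSO4 + PBS mice and 0 in all 3 ZnSO4 + Dex mice, too few to test. Il22ra1, its epithelial receptor chain, had a log2 fold change of 0.00 with zinc in PBS mice (SE 0.15, adjusted p = 0.991). Stat3, the transducer, had a log2 fold change of -0.36 there (SE 0.12, adjusted p = 0.116), and averaged over injections -0.44 (SE 0.08, adjusted p = 0.00605), past the threshold on p but under the 0.8 set on size. The feedback inhibitor Socs3 fell by 1.56 with zinc in PBS mice (SE 0.38, adjusted p = 0.0402, edgeR), Socs1, another inhibitor of this signalling, fell by 1.41 (SE 0.32, adjusted p = 0.0316), and the epithelial cytokine Il18 fell by 1.35 (SE 0.21, adjusted p = 0.00470). These were the 3 of 23 tested genes of the list that were called, 0 higher and 3 lower, against 1.7% of all genes called and 0.954% called lower, and the median of the list was -0.097 (-0.013 over all genes). The count was 1, with Il18 left, without water + PBS replicate 1 or 2, water + Dex replicate 1, or ZnSO4 + PBS replicate 1 or 3. The Socs3 call was also lost without water + Dex replicate 2 or 3 or ZnSO4 + Dex replicate 1 or 3, and with only the groups compared. That of Socs1 was also lost without ZnSO4 + PBS replicate 2 and with the filter of at least 10 reads in every library. With the replicate number as a block neither was called.

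The same list was read with Dex, where Reg3b and Reg3g did not pass the test. Dex was given 2 h before the ileum was taken and ZnSO4 was drunk for 7 days, so the 2 treatments differ in time too. With Dex in plain-water mice Socs3 fell by 2.06 (SE 0.39, adjusted p = 0.00534), Socs1 fell by 2.31 (SE 0.34, adjusted p = 0.00121), and, named after their values were seen, Il1b fell by 3.85, Pim1 fell by 1.16 and the receptor gene Il6ra rose by 0.86. These were the 5 of 23 called, 1 higher and 4 lower, against 4.42% of all genes. Stat3 had a log2 fold change of -0.23 (adjusted p = 0.279) and Il22ra1 of -0.10 (adjusted p = 0.769).

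Among 18 genes of microbial sensing, Myd88, the adaptor of most Toll-like receptors, had a log2 fold change of -0.28 with zinc in PBS mice (SE 0.13, adjusted p = 0.247). Tlr2, a receptor for bacterial lipoproteins, fell by 0.87 (SE 0.19, adjusted p = 0.0292) and was the 1 gene called, against 1.7% of all genes. Averaged over injections, Tlr2 fell by 0.95 (SE 0.14, adjusted p = 0.00119) and its partner Tlr1 fell by 1.21 (SE 0.19, adjusted p = 0.00205), 2 of 18 with 0 higher against 2.71% of all genes called, and 16 of the 18 log2 fold changes were below 0 with a median of -0.22. The Tlr2 call in PBS mice was lost without water + PBS replicate 1 or 2 or ZnSO4 + PBS replicate 1 or 2. It was also lost with the replicate number as a block, and when only those 2 groups entered the fit. Without ZnSO4 + PBS replicate 2 and with the block, Tlr1 was called in its place. With Dex in plain-water mice Tlr7, named after its value was seen, rose by 1.33 (adjusted p = 0.0477) as the 1 gene of 18 called, close to the 4.42% of all genes called, and leaving out a library ended that call for every library but water + PBS replicate 2 and ZnSO4 + PBS replicate 3. Extl3, a candidate receptor for Reg proteins, had between 502 and 676 normalised counts in all libraries and a log2 fold change of 0.09 with zinc in PBS mice (SE 0.12, adjusted p = 0.712).

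Other epithelial genes known to respond to microbes gave the most calls of the 3 pathway lists with zinc. These lists were chosen with earlier results of these data known, so their counts are descriptions and no test of the lists. With zinc in PBS mice 7 of the 20 tested were called, all lower, against 1.7% of all genes, and the count lay between 5 and 8 over the alternatives. In these mice 15 of the 20 log2 fold changes were below 0. Averaged over injections 9 of 20 were called, all lower, against 2.71% of all genes (8 by DESeq2, and between 7 and 10 over the alternatives), with a median of -0.68 against -0.0046 over all genes. There 16 of the 20 log2 fold changes were below 0. The serum amyloid gene Saa1 had between 1876 and 4474 normalised counts in the 6 plain-water mice and between 23.6 and 260.3 in the 6 ZnSO4 mice, and averaged over injections it fell by 4.81 (SE 0.37, adjusted p = 2.4e-05, edgeR). Saa2, with at most 2.07 normalised counts in ZnSO4 mice against 8.55 to 18.1 on plain water, was called by edgeR but not by DESeq2. The filter of at least 10 reads in every library removed Saa2, and its fitted fold is not given because of these low counts. Duoxa2 and Duox2, the maturation factor and catalytic subunit of an epithelial peroxide-producing oxidase, fell by 3.65 (SE 0.20) and fell by 2.68 (SE 0.18). Fut2, the epithelial fucosyltransferase, fell by 2.61 (SE 0.25, adjusted p = 0.000105), and the inducible nitric oxide synthase gene Nos2 fell by 2.01 (SE 0.23, adjusted p = 0.000261). Saa3 fell by 1.51 (SE 0.25, adjusted p = 0.00248), the goblet cell resistin-like gene Retnlb fell by 1.44 (SE 0.41, adjusted p = 0.0403) and Lcn2, the siderophore-binding lipocalin, fell by 0.82 (SE 0.17, adjusted p = 0.00923). The calls of Retnlb and Lcn2 were both lost without water + PBS replicate 1 or 2, water + Dex replicate 2 or 3, ZnSO4 + PBS replicate 2 or ZnSO4 + Dex replicate 2. That of Retnlb was also lost without water + PBS replicate 3, water + Dex replicate 1 or ZnSO4 + Dex replicate 1, and with the filter of at least 10 reads in every library. That of Lcn2 was also lost without ZnSO4 + PBS replicate 1 and with upper-quartile factors. With Dex in plain-water mice 3 of 20 were called, Lcn2 higher and Duoxa2 and Sprr2a2 lower, against 4.42% of all genes. Lcn2 alone was called with the replicate number as a block and without water + PBS replicate 2 or 3, water + Dex replicate 1 or 3, or ZnSO4 + Dex replicate 1, and Lcn2 was called under every alternative tried. Lcn2 rose by 4.90 there (SE 0.24, adjusted p = 5.2e-07), under the injection for which Reg3b and Reg3g had log2 fold changes of 0.14 and -0.05.

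**Figure D5:**
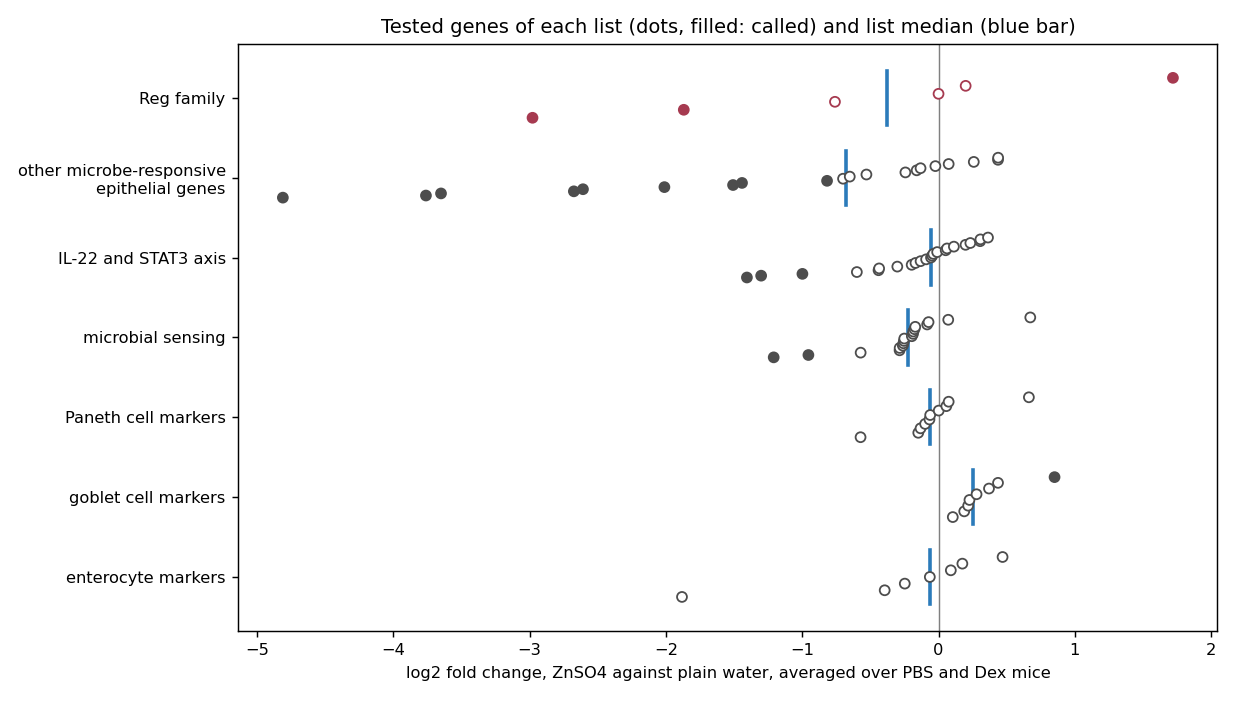
Log2 fold change of ZnSO4 against plain water, averaged over PBS and Dex mice (horizontal axis), for the tested genes of 7 lists (dots, filled where called), with the median of each list (blue bar). Reg3g at -2.98 and Reg3b at -1.87 lie among the lower genes of the microbe-responsive list, whose median is -0.68, Reg4 at 1.72 lies to the right of all other genes shown, and the medians of the Paneth and enterocyte markers are -0.064 for both.

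Genes with the pattern most like a member were named by Pearson r of log2 CPM (reads scaled to library size) over the 12 libraries, among 14956 genes with a mean of at least 1 CPM, as a description with no test. All points share the libraries and the 2 treatments, so a gene that follows the same treatment can score high. For Reg3g the 5 were Unc5cl (r = 0.984), Saa1 (0.975), Smpdl3a (0.973), Lgmn (0.972) and Fut2 (0.969). For Reg3b they were Fut2 (0.970), H2-D1 (0.967), Cycs (0.967), Unc5cl (0.966) and Ceacam1 (0.958). Unc5cl, which encodes a death domain receptor-like protein of the gut epithelium, had between 525.5 and 794 normalised counts on plain water and between 243 and 290.5 on ZnSO4. For Reg4 the list was Ethe1 (0.967), Akr1c13 (0.960), Oxct1 (0.951), Gsta1 (0.948) and Fhl1 (0.944), the first 4 of them genes of metabolic or detoxifying enzymes. Reg3d, which followed Dex, was most like Mid1 (0.949), Myrfl (0.943), Anxa4 (0.936) and the glucose transporter gene Slc5a1 (0.932). For the nearly level Reg3a the highest were Ift20 (0.845), Pigk (0.824), Sppl3 (0.820), Commd10 (0.818) and Ddx46 (0.815), and for Reg1 Apool (0.876), Nop10 (0.843), Hsd17b10 (0.824), Mccc1 (0.820) and Rnf5 (0.818). With Spearman's rho in place of r, 1 or 2 of the 5 genes were shared per member, so the lists depend on the measure.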

How the data were processed

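The authors deposited raw counts per gene for 12 ileum libraries, and per the labels and the submitters' processing notes reads were trimmed with Trimmomatic, aligned with HISAT2 2.0.4 to mm10, handled with SAMtools and counted with featureCounts. The annotation release and the strand setting are not given in the sources used here. Every count column was assigned to a sample by its name. Here counts were fitted in R 4.3.3 with edgeR 4.0.16 (limma 3.58.1): genes passing filterByExpr (minimum count 10) were kept, 15938 of 54838 with 99.8% of the counts, TMM factors lay between 0.922 and 1.09, and glmQLFit and glmQLFTest were run on 1 model of the 4 groups. Every adjusted p is Benjamini-Hochberg over all genes tested. A gene was called at an adjusted p under 0.05 and a log2 fold change beyond 0.8 (for the interaction, on the p alone). The SE was derived from the fold change and F. Groups did not overlap where every mouse of one lay above every mouse of the other. With 3 against 3 an exact permutation test cannot go below 0.1, so the fit across genes was used. A permutation test was run on the ratios within libraries, but they were chosen after the values were seen and its results are not used. The coefficient of biological variation was 0.191. Replicates are separate mice, and no pair of libraries of a group agreed within sampling noise (chi-square over its degrees of freedom, 8.28 to 45.7). Replicate numbers were not treated as pairs.

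The Reg genes, the pathway and marker lists and the tests were chosen with earlier results of these data known. The genes named were all 7 members, Il22, Il22ra1, Stat3, Socs3, Myd88 and Extl3, then up to 12 called genes of the pathway lists by the size of the averaged zinc difference, the genes of the label check, and the 5 genes most like each member (of those for Reg3d, 1 is not reported here), and any other name was chosen after its value was seen. Ileal enterocyte, B cell, macrophage, neutrophil and smooth muscle markers were also counted. Identifiers were matched to symbols for 54723 of 54838 genes, and positions came from the GENCODE annotation of GRCm38. Promoter windows came from RefSeq. The script was tested on simulated data. Alternatives were DESeq2 1.42.0, RLE and upper-quartile factors, other count filters, a block for the replicate number, fits of the compared groups alone, glmTreat, other limits on the fold change, Spearman's rho and every library left out in turn. Figures and joins used Python 3.11.15, pandas 2.3.3, numpy 2.4.6, scipy 1.17.1, matplotlib 3.10.9 and Biopython 1.88. Intervals on counts cover counting error only.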

Additional observations from a re-analysis of the deposited data

How the results depend on the processing

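Fold changes were compared under the alternatives apart from glmTreat, the other limits on the fold change and, for Reg3d, the filter of 10 counts. The 14 called member differences gave 260 such values, of which 255 kept direction and call, 5 lost the call and 0 reversed. The 5 were Reg3b with zinc in Dex mice (adjusted p = 0.0505 with only the groups compared, and 0.0564, 0.0547 and 0.0669 without water + Dex replicate 1, 2 or 3) and Reg3b with both treatments (0.0506 with only the groups compared). A test against a difference of 0.8 (glmTreat) called 1 member with zinc in PBS mice, 1 with zinc in Dex mice, 0 with Dex in ZnSO4 mice and 0 with Dex averaged. Requiring 10 counts in every library removed Reg3d and left 0 for both Dex comparisons. Without ZnSO4 + Dex replicate 1, Reg3d was called with Dex in plain-water mice (adjusted p = 0.0480, so member counts ranged from 0 to 1) and with zinc averaged (0.0352). Over single libraries left out, called differences with zinc in PBS mice ran from -2.21 to -1.72 for Reg3b, -3.39 to -2.81 for Reg3g and 1.46 to 2.00 for Reg4.

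For the lists, calls in the IL-22 and STAT3 axis ranged from 1 to 4 over libraries left out (zinc in PBS mice), and the filter of 10 counts left 3 with Dex in plain-water mice. For microbial sensing with zinc in PBS mice DESeq2 gave 2, a filter of at least 1 count gave 2, only the groups compared gave 0 and libraries left out gave 0 to 1, and with Dex in plain-water mice only the groups compared gave 0 and libraries left out gave 0 to 1. The other microbe-responsive genes with Dex in plain-water mice gave 1 to 3 over libraries left out.

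Signs reversed for 37 of 886 values, all of differences that were not called and all with a library left out. The ranges of the log2 fold change were as follows. With zinc in PBS mice, Reg1 ran from -0.040 to 0.33 and Reg3a from -0.35 to 0.34. With zinc in Dex mice, Reg3a ran from -0.12 to 0.21, and averaged over injections from -0.14 to 0.21. With Dex in plain-water mice, Reg1 ran from -0.061 to 0.23, Reg3b from -0.051 to 0.42, Reg3g from -0.30 to 0.26 and Reg4 from -0.11 to 0.28. With Dex in ZnSO4 mice Reg4 ran from -0.26 to 0.28, and with both treatments Reg3a ran from -0.62 to 0.060. With Dex averaged, Reg3g ran from -0.022 to 0.26 and Reg4 from -0.090 to 0.20. The interaction ran from -0.092 to 0.28 for Reg1, -0.26 to 0.42 for Reg3a, -0.0026 to 0.59 for Reg3b, -0.010 to 0.62 for Reg3g and -0.37 to 0.17 for Reg4. The cause was not tested.

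Replicate numbers did not pair the mice: the 18 same-numbered pairs had a median correlation of -0.0557 and 3 of them passed 0.1, and 4 of 12 libraries correlated best with their own number. With the replicate block the member counts were 3 with zinc in PBS mice, 0 with Dex in plain-water mice, 3 with zinc in Dex mice and 1 with Dex in ZnSO4 mice, as without it, and the block gave 1 call in place of 3 for the other microbe-responsive genes with Dex. The alternatives for the lists, the coding transcript lengths and the ratios were added after seeing the data. With 3 mice per group, Reg3d at 4 to 36 reads and Reg2 at 0 to 4 reads are limited by depth.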

Other observations

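Other cells of the ileum were counted beside the lectins. With zinc averaged over injections edgeR called 0 of 4 ileal enterocyte markers (1 at an unadjusted p under 0.05), 0 of 7 B cell markers (0 at an unadjusted p under 0.05), 0 of 5 macrophage markers (2), 0 of 6 smooth muscle markers (4) and 0 of the 1 neutrophil marker tested (0), and DESeq2 called 0 in each of these lists. All 7 B cell markers (median -1.14), all 5 macrophage markers (median -0.19) and the neutrophil marker (-1.47) had a log2 fold change below 0, as Reg3b and Reg3g did, and the part of these cells was not tested. The B cell sums ran from 306 to 6605 normalised counts in water + PBS mice and from 123 to 4999.6 in ZnSO4 + PBS mice. All 6 smooth muscle markers had a log2 fold change above 0 with zinc, with a median of 0.37.

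Reg4 went from between the 2195th and the 4238th place by reads in plain-water libraries to between the 330th and the 991st in ZnSO4 libraries, while Reg3a stayed between the 1890th and 4642nd and between the 2868th and 4200th. Under ZnSO4 the 3 Dex libraries had between 4.49 and 4.64 Reg3b reads per Reg3g read, a narrower range than the 3.59 to 5.10 of the 3 PBS libraries, although the Reg3b counts of the Dex libraries ranged from 36402 to 87386.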
